A study of Mus musculus with 192 samples.

Results

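The mRNAs of the leptin receptor and the first steps of its signal, Lepr-b, Jak2 and Stat3, were measured in the brain of L44 mice. These are 3 of the 43 target genes counted, and all 3 were counted in every pool of RNA, made from 341 tissue samples in all. Members were taken as the rows with these names, and each count was divided by the geometric mean of the 3 reference genes of the same pool and given per 1000 (the normalised count).

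L44 mice are FVB/n mice with a transgene for triprolyl-human amylin, a form of human amylin altered by prolines so that it does not aggregate, under the rat insulin 2 promoter. All animals were male and came from crosses of hemizygous parents. Hemizygous (HEM) and homozygous (HOM) mice were set against nontransgenic (NON) mice, which were littermates where possible and otherwise age-matched. Tissue was taken at 100 days of age before diabetes (T1), at the onset of diabetes (T2) and at 400 days, after diabetes (T3), in the morning (AM, 10 to 12) or in the afternoon (PM, 1 to 3). Mice at T2 were aged 90 to 286 days, and those of NON (median 173 days) thus reached down to the age of T1. The promoter directs the transgene to insulin-producing cells, and NON mice carry none of it. At T3 the label of previous diabetes was given to 12 of 24 NON pools, 13 of 23 HEM pools and 18 of 22 HOM pools, so the NON group at T3 is not free of that label.

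Each brain was divided into hindbrain with cerebellum (46 pools), midbrain with forebrain and hypothalamus (49), left cortex (48) and right cortex (49). There were 72 NON, 62 HEM and 58 HOM pools. A pool held equal amounts of RNA from 2 mice (149 pools) or RNA of 1 mouse (43 pools), so the spread between pools understates that between mice. By their numbers, the same pools gave all 4 regions at T1 and T2, but for 1 HEM pool missing from the left cortex at T1, and at T3 the pools differed between regions. At T1, 12 HEM pools had no stated collection time and entered the comparisons of regions, the likeness over all pools and the ratio means of HEM at T1, but no test of genotype, time or collection time.

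Leptin is a hormone of fat tissue that reports energy stores to the brain and lowers food intake. Its receptor gene makes several forms, and Lepr-b, the long form, is the one whose intracellular tail carries the full signal. The kinase Jak2 is bound to that tail, is activated when leptin binds, and phosphorylates the receptor. The phosphorylated receptor then recruits the transcription factor Stat3, which is itself phosphorylated, enters the nucleus and switches on target genes. Among these is Socs3, an inhibitor that binds the receptor complex and ends the signal. In the arcuate nucleus of the hypothalamus leptin raises Pomc and lowers Agrp and Npy, and Jak2 is also shared by receptors for other hormones and cytokines. The mRNA of Jak2 and Stat3 reports the amount of transcript and not the phosphorylated, active protein.

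In the mouse reference annotation of the promoter table used here (RefSeq, GRCm38.p6), Lepr lies at chr4:101717137-101815352, Jak2 at chr19:29251803-29313095, Stat3 at chr11:100886806-100939594 and the feedback gene Socs3 at chr11:117966079-117970336. Stat3 and its feedback gene Socs3 were high together in 2 HOM pools described further on, as was Npy, which is not shown here, and for that reason their promoters are given, as the 250 bases before the start site used in the table, 5′ to 3′ on the strand of the gene. Capitals mark the letters TTCNNNGAA (N is any base), the palindrome bound by phosphorylated Stat3 and by other Stat proteins, which reads the same on both strands and was the only motif searched. The start sites used in the table for Stat3 and Socs3 lie inside the gene spans above, whose annotated 5′ ends are further upstream.
Stat3, chr11:100939541-100939790, minus strand: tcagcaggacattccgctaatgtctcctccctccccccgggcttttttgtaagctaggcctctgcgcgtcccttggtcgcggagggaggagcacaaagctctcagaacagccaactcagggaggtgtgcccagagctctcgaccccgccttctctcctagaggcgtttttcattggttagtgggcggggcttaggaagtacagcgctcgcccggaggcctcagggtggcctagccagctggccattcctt
Socs3, chr11:117969367-117969616, minus strand: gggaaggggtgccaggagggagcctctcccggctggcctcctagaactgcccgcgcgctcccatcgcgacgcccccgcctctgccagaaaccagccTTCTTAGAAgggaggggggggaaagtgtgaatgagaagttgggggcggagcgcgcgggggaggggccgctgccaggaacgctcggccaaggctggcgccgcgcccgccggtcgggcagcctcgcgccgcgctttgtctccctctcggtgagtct
The Socs3 promoter held 1 match, TTCTTAGAA, which begins at position -154 from the start, and the windows of Stat3, Jak2 and Lepr (2 start sites) held 0. Over windows of 250 bases before and 50 after the start, 2726 of 32851 mouse promoters (8.3%) held at least 1 match. A match describes letters only.

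The summed count of the 43 target genes per pool had a median of 151091 for hindbrain pools (3489 to 252890), 245328 for midbrain pools (125321 to 314759), 278653.5 for left cortex pools (51446 to 490984) and 414121 for right cortex pools (90264 to 525264). Jak2 and Stat3 lay above the background of every pool, set from the 8 negative control probes at 2 SD over their mean. Lepr-b was a low-count gene, and it was at or under that background in 8 pools, which were 3 hindbrain, 1 left cortex and 4 right cortex pools. In 3 hindbrain pools at T3 the reference genes were under 20% of the median of the region: NON PM pool 5/6 (reference geometric mean 511, Lepr-b count 5), NON AM pool 7 (267 and 15) and HOM AM pool 9 (131 and 3). Values for these 3 pools rest on few counts, and the hindbrain results at T3 that changed call without them are given below. The labels set apart a further 4 hindbrain pools at T3, NON pool 12, HEM pools 11/13 and 12 and HOM pool 12, whose mouse numbers are in no pool of another region, and calls that changed without these are given too, a choice made after the data were seen.

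The panel has no markers of cell types. Hypothalamic neuropeptides set the pools labelled midbrain apart from the rest, and they do not check the labels of the other regions. The median normalised count of Mch, which is made in the lateral hypothalamus, was 4107 in midbrain pools against 24.6 in hindbrain, 17.0 in left cortex and 18.6 in right cortex pools. Hcrt, Agrp and Pomc were also highest in the midbrain by median. The highest single pools of Agrp (74.9, against 31.0 in the midbrain) and Pomc (189 against 139) were hindbrain pools. In bulk tissue, fewer cells of a type and less RNA per cell cannot be told apart, here and in all that follows.

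Before T3, Lepr-b was lowest in the hindbrain, and Jak2 was highest in the cortices. At T1 the median normalised count of Lepr-b was 27.3 (hindbrain), 39.3 (midbrain), 38.8 (left cortex) and 40.1 (right cortex). That of Jak2 was 2504, 2731, 3936 and 3914 in the same order. For Stat3 it was 755, 808, 888 and 899. Every cortical pool of Jak2 at T1 (at least 3209) lay above every midbrain and hindbrain pool (at most 3026), while the Stat3 levels of the 4 regions lay close together.

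In a model of all pools, 184 of 258 gene by region comparisons passed an adjusted p of 0.05 (71.3%), so regional difference was the rule for this panel, and 12 of 18 passed for Lepr-b, Jak2 and Stat3. The midbrain exceeded the hindbrain by a log2 fold-change of 0.56 ± 0.07 (SE) for Lepr-b, 0.30 ± 0.03 for Jak2 and 0.28 ± 0.04 for Stat3. The largest called differences over all groups were Lepr-b in the left cortex against the midbrain, -0.73 ± 0.07, and Jak2 in the right cortex against the hindbrain, 0.45 ± 0.03. Those not called included Lepr-b in the right cortex against the hindbrain (-0.11 ± 0.07, adjusted p = 0.112), Jak2 in the right against the left cortex (0.03 ± 0.03) and Stat3 in the right cortex against the midbrain (-0.02 ± 0.04). Lepr-b in the left cortex against the hindbrain was called (-0.18 ± 0.06), but not without the 4 pools of mice seen in the hindbrain only (-0.02, adjusted p = 0.805) nor with the mice as a block, a fit of the pools present in more than 1 region (-0.08, adjusted p = 0.215), and scaled to the positive control probes it was 0.33 (adjusted p = 0.014), so its direction is not settled. No member passed between the right and the left cortex at any time point, but with the mice as a block Jak2 did at T2 (0.11, adjusted p = 0.00145).

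Averages over time points hid a change of order. Within time points, 34 of 54 comparisons of Lepr-b, Jak2 and Stat3 passed, where 68.2% of all gene by region comparisons passed at T1, 70.2% at T2 and 67.8% at T3. With counts scaled by a trimmed mean of log-ratios over the target genes (TMM) the number was 20, and without the third reference gene 22. At T1 the left cortex exceeded the hindbrain by 0.64 for Jak2 and 0.29 for Stat3, and the midbrain by 0.50 for Jak2. Lepr-b in the left cortex exceeded the hindbrain by 0.26 at T1, a call that was lost without NON pool 8/9 (0.16, adjusted p = 0.229). In descending order of Lepr-b at T1, the right cortex, midbrain and left cortex did not differ from each neighbour beyond their spread (right against left cortex 0.17 ± 0.12), and Stat3 of the right cortex was 0.13 ± 0.06 above the midbrain (adjusted p = 0.0642), which passed with the mice as a block (adjusted p = 0.00141).

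At T3 this order had turned for Lepr-b and Jak2. The midbrain was now the highest, with Lepr-b in the left and right cortex below it by -2.06 ± 0.13 and -2.04 ± 0.13, and Jak2 by -0.57 and -0.56. Lepr-b of both cortices was also under the hindbrain (-1.15 and -1.13), and Jak2 of the right cortex was 0.12 ± 0.06 above the hindbrain (adjusted p = 0.0702). The midbrain exceeded the hindbrain by 0.92 for Lepr-b, 0.68 ± 0.06 for Jak2 and 0.50 ± 0.07 for Stat3 at T3. Without the low-reference pools these were 1.03, 0.59 and 0.39, all still called, and Stat3 of the right cortex above the hindbrain (0.20) was not (0.09, adjusted p = 0.136). With TMM the latter was -0.01. Without the 4 pools of mice seen in the hindbrain only, Jak2 of the right cortex did exceed the hindbrain (0.33, adjusted p = 2.30e-10), as did that of the left cortex (0.33; 0.11 with all pools). At T2, where no pool is left out, Jak2 in the midbrain above the hindbrain was then also called (0.09 in both fits, adjusted p = 0.0322 against 0.137). With the mice as a block, Jak2 at T3 exceeded the hindbrain by 1.06 (midbrain), 0.49 (left cortex) and 0.47 (right cortex), and Stat3 by 0.45 (left) and 0.38 (right), all called. The hindbrain pools kept at T3 were then 3 of 6 NON, of which 2 were low-reference pools, 3 of 5 HEM and 1 of 4 HOM.

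**Figure D1:**
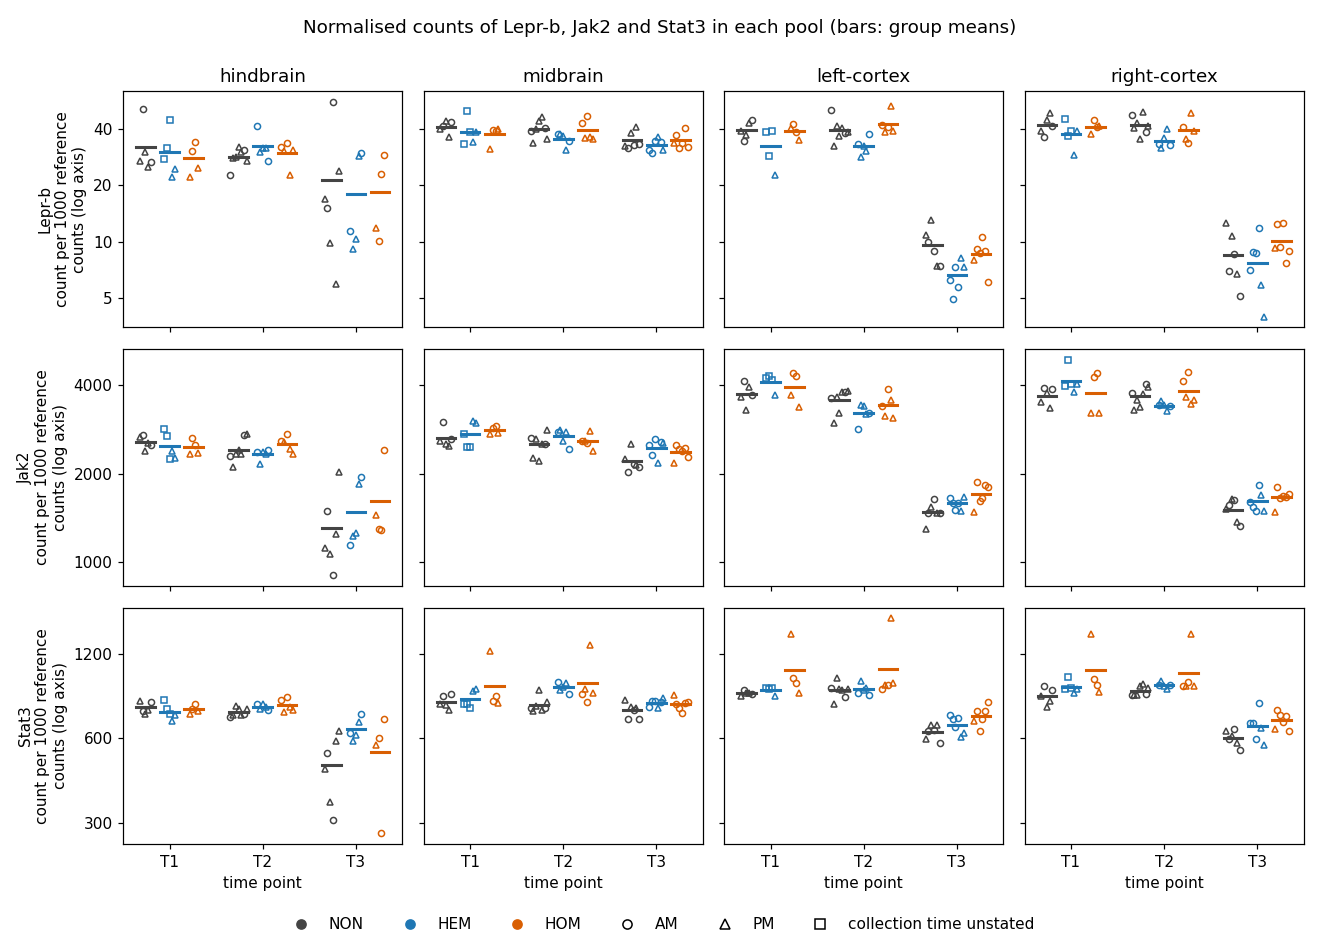
Normalised count (per 1000 counts of the reference gene mean, log axis) of Lepr-b, Jak2 and Stat3 in each pool, by region and time point, with genotype as colour, collection time as marker and group means as bars. In both cortices the T3 pools of Lepr-b (at most 13.0) and Jak2 (at most 1876) lie under every pool of T1 and T2, whereas the midbrain pools overlap across time points.

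The time points were compared first in NON mice, with AM and PM groups weighted equally. Between T1 and T2 none of the 12 gene by region comparisons of Lepr-b, Jak2 and Stat3 passed by edgeR's quasi-likelihood test (0 at an unadjusted p under 0.05), where 1.16% of all genes' comparisons passed in either direction. The largest for Jak2 was -0.08 ± 0.06 in the midbrain. Between T1 and T3, 10 of the 12 passed, and all of these were lower at T3. In the model of each region 101 of 172 comparisons over all 43 genes passed, of which 89 were lower, so a lower value at T3 was common on this panel.

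In the left cortex, Lepr-b of NON mice had normalised counts of 34.6, 44.5, 38.9, 37.4 and 42.9 in the 5 pools at T1 and of 7.40 (lowest), 9.44 (median) and 13.0 (highest) in the 6 pools at T3. The groups were far apart and did not overlap. Lepr-b fell by 2.06 ± 0.14 on the log2 scale (adjusted p = 1.55e-14), where 44.2% of all genes were called lower in this region and the median change of the 43 genes was -0.22. In the right cortex the T1 pools had 36.2, 41.8, 39.3, 44.6 and 48.9 and the T3 pools ran from 5.13 to 12.6, again without overlap. The log2 fold-change there was -2.30 ± 0.16 (adjusted p = 1.18e-14), where 51.2% of genes were called lower with a median change of -0.33. The T3 NON pools 8/9 (16 counts) and 10 (19 counts) were at or under background there, so the size of the fall is not fully resolved.

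Jak2 moved alike in the cortices. Its normalised counts in the left cortex were 4130, 3700, 3657, 3306 and 3936 in the NON pools at T1 and 1298 to 1635 at T3, with every T3 pool under every T1 pool. The log2 fold-change was -1.35 ± 0.07 (adjusted p = 6.95e-18) for the left cortex, while the right cortex had -1.31 ± 0.06 (adjusted p = 6.81e-20). By size of the fall, Lepr-b, Lepr and Jak2 were the most lowered of the 43 genes in both cortices. Lepr is a second probe to the same gene, named for another transcript record.

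Stat3, the transcription factor, fell less. In the left cortex the NON pools at T1 had normalised counts of 888, 864, 851, 872 and 869, and those at T3 ran from 578 to 671. No T3 pool reached a T1 pool, yet the change amounted to -0.46 ± 0.10 (adjusted p = 0.000264), with -0.51 ± 0.09 for the right cortex (adjusted p = 1.92e-05), nearer to the median gene than that of Lepr-b or Jak2.

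In the midbrain, which holds the hypothalamus, the changes were small. Lepr-b had 41.7, 43.6, 40.3, 44.03 and 36.3 at T1 and 31.7 to 41.1 at T3 in NON pools, which overlapped. Its log2 fold-change was -0.25 ± 0.09 (adjusted p = 0.0175, where 51.2% of genes were called lower and the median change was -0.20), and it was no longer called without T1 pool 8/9 (-0.23, adjusted p = 0.0661). Jak2 fell by 0.28 ± 0.06 (adjusted p = 0.000137), and Stat3, at -0.12 ± 0.08, was not called (adjusted p = 0.211).

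The hindbrain pools at T3 were spread most widely, and 60.5% of genes were called lower there, with a median change of -0.54. In NON mice Jak2 fell (-1.0 ± 0.17, adjusted p = 1.23e-05) and so did Stat3 (-0.72 ± 0.15, adjusted p = 0.000116), and both were still called without the low-reference pools (-0.80 and -0.50). Lepr-b had NON pools from 24.995 to 50.9 at T1 and from 5.94 to 56.1 at T3, and its change was not called (-0.64 ± 0.36, adjusted p = 0.122). The highest Lepr-b value at T3, 56.1, was that of the low-reference pool NON AM 7. Without the low-reference pools the change of Lepr-b was called (-1.03 ± 0.39, adjusted p = 0.0214).

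Across all genotypes, 4 hindbrain pools at T3 stood nearer to the younger pools. NON pool 12, HEM pools 11/13 and 12, and HOM pool 12 had Jak2 at 2030, 1843, 1946 and 2416, and the other T3 pools had 902 to 1496. Lepr-b was 23.9, 28.9, 29.9 and 29.3 in the same 4 pools, close to the T1 median of 27.3. The other T3 pools had Lepr-b from 5.94 to 23.0, but for the low-reference NON pool 7 at 56.1. The 4 pools named are those of mice whose numbers occur in no other region. Without them the change of Lepr-b from T1 to T3 in the hindbrain was called in NON (-0.87 ± 0.28, adjusted p = 0.00737), in HEM PM (-1.27 ± 0.38, adjusted p = 0.0078) and in HOM (-1.22 ± 0.34, adjusted p = 0.00402), so whether Lepr-b passed in the hindbrain depended on the pools kept. They were picked out after their values were seen.

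The size of the T3 change in NON mice differed between regions. Of 18 differences between pairs of regions for Lepr-b, Jak2 and Stat3, 10 passed, where 27.9% did over all genes. The fall of Lepr-b was greater in the left and right cortex than in the midbrain, by -1.81 ± 0.27 (adjusted p = 1.14e-08) and -2.05 ± 0.27 (adjusted p = 1.45e-10), and greater than in the hindbrain by -1.38 ± 0.30 (adjusted p = 5.40e-05) and -1.63 ± 0.30 (adjusted p = 2.21e-06). For Jak2 the cortices differed from the midbrain by -1.07 ± 0.14 (adjusted p = 8.28e-11) and -1.03 ± 0.14 (adjusted p = 2.09e-10). Jak2 and Stat3 fell more in the hindbrain than in the midbrain, by differences of 0.72 ± 0.14 (adjusted p = 8.98e-06) and 0.60 ± 0.15 (adjusted p = 0.000578). The remaining pair of calls each rested on 1 pool: Jak2 in left cortex minus hindbrain (-0.35 ± 0.14, adjusted p = 0.0374) moved to -0.14 without T3 NON pool 4/11, and Stat3 in right cortex minus midbrain (-0.39 ± 0.15, adjusted p = 0.0218) was lost without T1 NON pool 2/7. Jak2 in right cortex minus hindbrain was not called (-0.31 ± 0.14, adjusted p = 0.0814). Without the low-reference pools it was called (-0.51, adjusted p = 0.00139), as was Lepr-b in midbrain minus hindbrain (0.77, adjusted p = 0.0292; 0.42, adjusted p = 0.226, with all pools). Without the 4 pools of mice seen in the hindbrain only, Lepr-b in midbrain minus hindbrain was also called (0.66, adjusted p = 0.015), and Jak2 in left cortex minus hindbrain was not (-0.22, adjusted p = 0.0664). The other differences from the hindbrain called with all pools were still called in both cases. With the mice as a block, differences of Jak2 from the hindbrain turned to 0.11 (left cortex, adjusted p = 0.386) and 0.15 (right cortex, adjusted p = 0.162), Lepr-b in midbrain minus hindbrain was -0.03 (adjusted p = 0.939), and those of Stat3 from the hindbrain were called for both cortices (0.76 left, 0.71 right). Stat3 in left cortex minus midbrain was called as well (-0.30, adjusted p = 0.00317; -0.34, adjusted p = 0.0539, without the block). The differences of the NON change from the hindbrain therefore varied with the pools kept, except that Lepr-b fell more in the cortices, and Jak2 and Stat3 less in the midbrain, in each of these fits.

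Set against T2 in place of T1, NON mice gave the same picture, with 9 of 12 comparisons lower (50.0% over all genes). The log2 fold-change of Lepr-b was -2.10 ± 0.13 for the left and -2.33 ± 0.15 for the right cortex, and that of Jak2 in the hindbrain -0.93. Lepr-b in the hindbrain (-0.41, adjusted p = 0.295) was called without the 4 pools of mice seen in the hindbrain only (-0.64, adjusted p = 0.0382). Those pools stood nearer to the younger ones and were picked out after their values were seen, so this call carries no weight of its own. The T3 pools are the same in both comparisons.

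The amount of RNA and the scaling moved with T3 in the same regions. Relative to the positive control probes, the median of the reference genes went from 15.4 at T1 to 6.20 at T3 for the left cortex, 17.3 to 5.20 for the right cortex and 8.46 to 5.19 for the hindbrain, but 8.29 to 9.07 for the midbrain. These medians are over all genotypes. In hindbrain pools of HEM the reference geometric mean (counts) ran from 2612 to 5532 at T1 and 4483 to 6851 at T3. In those of NON it ran from 3321 to 6496 and 267 to 5022. The normalised counts divide the shift of the reference genes out, and its part in the results was not tested. Scaled by the trimmed mean over the target genes (TMM) in place of the reference genes, Lepr-b and Jak2 in NON mice still fell in both cortices (-1.79 and -1.07 left, -1.94 and -0.94 right), and Jak2 in the hindbrain (-0.51, adjusted p = 0.0047). Stat3 did not pass in any region with TMM (left cortex -0.18, right cortex -0.14, hindbrain -0.22, midbrain 0.08), nor did any of the 3 genes in the midbrain. Lepr-b at T3 was close to the background in raw counts, with medians of 31.5 (left cortex) and 27.5 (right cortex) beside median backgrounds of 16.7 and 20.4. With the negative control mean subtracted, the right cortex change from T2 to T3 was -2.81.

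**Figure D2:**
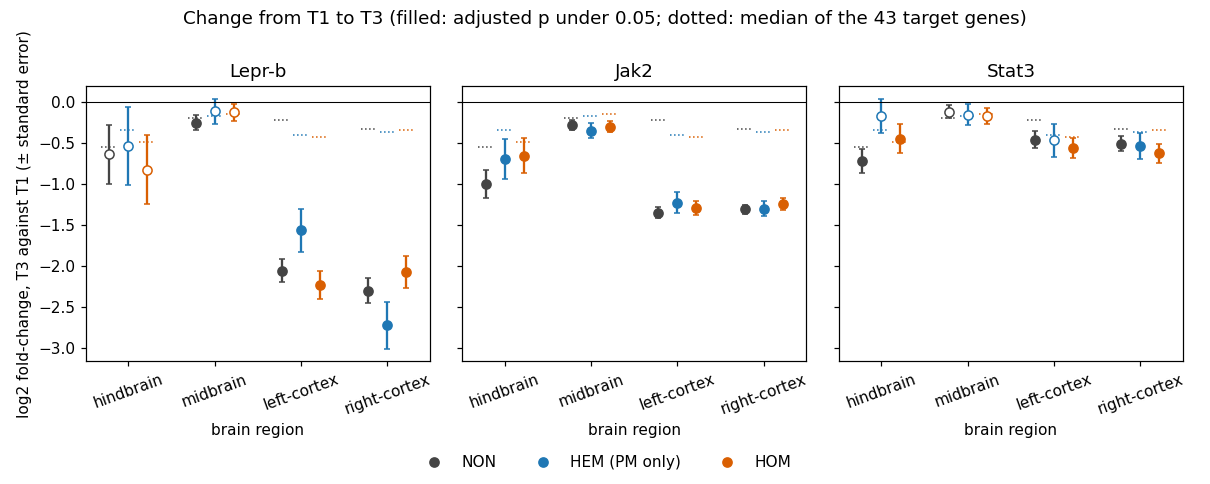
Log2 fold-change from T1 to T3 (points, bars are SE) of Lepr-b, Jak2 and Stat3 in each region for NON, HEM (PM pools only) and HOM mice, with filled points for an adjusted p under 0.05 and a dotted line at the median of the 43 genes. In both cortices Lepr-b and Jak2 lie far under the dotted line in all genotypes, and the midbrain points lie near it.

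The fall was also found in transgenic mice. HEM mice were compared in PM pools only, as T1 had no AM group, and the left cortex of HEM PM at T1 was 1 pool, which the fit takes to vary like the other groups. Of 24 comparisons of T3 with T1 in HEM and HOM, 16 were lower (38.4% over all genes): 8 of 8 for Jak2, 4 of 8 for Lepr-b and 4 of 8 for Stat3. By region the calls were 3 of 6 in the hindbrain, 2 of 6 in the midbrain, 5 of 6 in the left cortex and 6 of 6 in the right cortex, beside 36, 22, 33 and 41 of 86 over all genes. With TMM 9 were lower, 4 for Jak2, 4 for Lepr-b and 1 for Stat3 (the right cortex of HOM, -0.28, adjusted p = 0.0433), and Stat3 in the left cortex of HEM was 0.01.

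For Lepr-b the log2 fold-change of the right cortex was -2.73 ± 0.28 in HEM (adjusted p = 1.14e-09), where both T3 PM pools were at or under background so that the size is not resolved, and -2.08 ± 0.20 in HOM, and that of the left cortex -1.57 ± 0.26 and -2.23 ± 0.17. For Jak2 it was -1.30 ± 0.09 in HEM and -1.24 ± 0.07 in HOM in the right cortex, and -0.35 ± 0.09 and -0.30 ± 0.07 in the midbrain, all called. With TMM neither midbrain value passed (HEM -0.13, adjusted p = 0.27, and HOM -0.15, adjusted p = 0.083). Scaled to the positive control probes, the midbrain value of HOM turned to 0.055 (adjusted p = 0.687). Stat3 fell in HOM by 0.63 ± 0.12 in the right cortex (adjusted p = 2.54e-05), while the left cortex of HEM had -0.47 ± 0.20 (adjusted p = 0.0613). Lepr-b in the hindbrain of HOM was not called with all pools (-0.83 ± 0.42, adjusted p = 0.0996). Whether the change differed between genotypes was not tested.

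Over all genotypes the 18 T3 pools of each cortex lay under all of the T1 and T2 pools for Lepr-b and Jak2. For Lepr this held for all 18 in the left cortex and for 17 in the right, and for Stat3 for 17 in each. How many of the other target genes lay apart in this way was not counted, so the separation is not shown to be particular to these genes. For Lepr-b the left cortex ran from 4.94 to 13.0 at T3 and from 22.8 to 52.9 before, and the right cortex from 3.98 to 12.6 and from 29.0 to 49.2. For Jak2 the left cortex ran from 1298 to 1876 at T3 and never under 2841 before.

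In the transgenic groups none of 24 comparisons of T2 with T1 passed by edgeR's test (2 at an unadjusted p under 0.05), where 3.20% of all genes' comparisons passed. The largest for Jak2 was -0.20 ± 0.08 in the right cortex of HEM PM (adjusted p = 0.12). With TMM 1 passed, Jak2 in the left cortex of HOM (-0.20 ± 0.06, adjusted p = 0.0445).

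The study compared gene expression of HEM and HOM mice with that of NON mice at each time point. Within time point and collection time, 9 of 117 comparisons of HEM or HOM with NON passed for Lepr-b, Jak2 and Stat3, all higher in the transgenic mice, where 4.41% of all genes' comparisons were called higher. They were 5 of 39 for Stat3, 3 of 39 for Jak2 and 1 of 39 for Lepr-b. Leaving out 1 pool moved the number of calls down or up, by the range given further on under the processing. Of the 5 Stat3 calls, 4 were HOM PM groups and turned on 2 pools.

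Those 2 pools, T1 HOM PM pool 1/5 and T2 HOM PM pool 6/9, had the highest Stat3 of their regions in every region but the hindbrain. In the midbrain Stat3 was 1225 and 1285, against a highest value of 950.3 and a median of 805 over the other 47 pools. The left cortex had 1406 and 1603 against a highest value of 986, and the right cortex 1415 and 1414 against 990.1. The other HOM PM pools of the midbrain had 798 at T1 and 898 and 871 at T2, within the range of NON and HEM.

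Socs3, the feedback inhibitor of leptin signalling and a target of Stat3, was high in the same pools. Its normalised count was 51.7 and 67.2 in the midbrain, 45.8 and 83.4 in the left cortex and 65.0 and 63.9 in the right cortex, where no other pool passed 14.4, 19.2 and 18.3. In the hindbrain the same pools had Stat3 of 729.9 and 779 and Socs3 of 3.48 and 7.53, inside the range of the other pools. These pools were picked out after their values were seen, and the 3 regions of a pool number are the same mice, so they are not independent.

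Jak2 in these pools was between 0.945 and 1.16 times the median of the other pools of the region. Lepr-b exceeded every other pool only in the left cortex of T2 pool 6/9, at 52.9 against 50.5. Receptor and kinase transcripts in these pools thus lay within or just above the range of the rest.

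**Figure D3:**
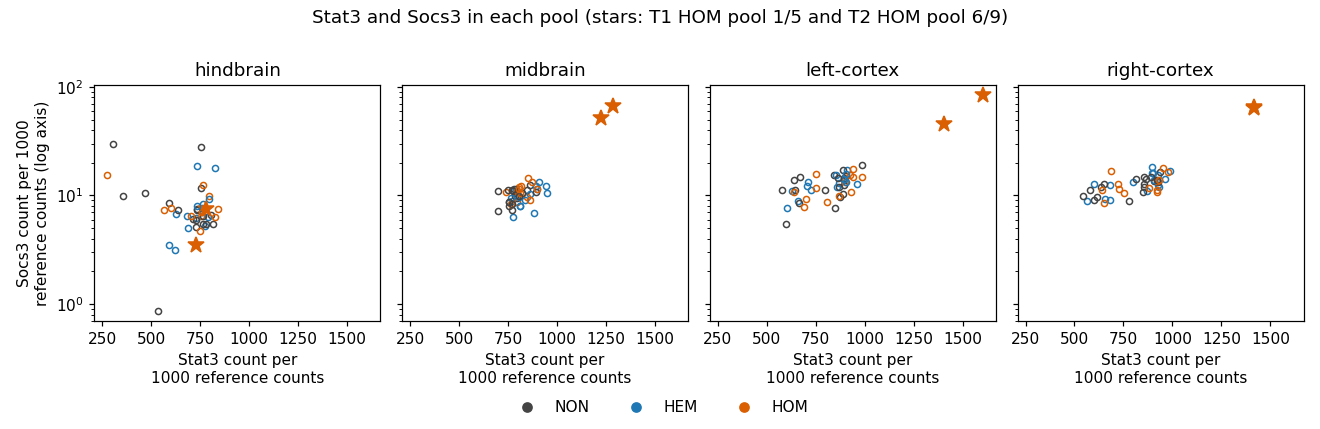
Normalised count of Stat3 against that of Socs3 in each pool, one panel for each region, with genotype as colour and the 2 HOM pools as stars. In the midbrain and both cortices the stars lie apart at high Stat3 and high Socs3, and in the hindbrain they lie among the other pools.

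The 4 Stat3 calls of HOM PM against NON PM were 0.50 ± 0.14 for the right cortex at T1 (adjusted p = 0.0225), 0.38 ± 0.12 in the midbrain at T1 (adjusted p = 0.0447), 0.35 ± 0.09 in the midbrain at T2 (adjusted p = 0.0114) and 0.37 ± 0.12 in the left cortex at T2 (adjusted p = 0.0475). Without the pool concerned they became 0.11, 0.03, 0.15 and 0.07, and none was called, but at T1 this left 1 HOM PM pool, which the fit takes to vary like the other groups. With the age-matched pools of T2 as a block, the T2 values were 0.31 (adjusted p = 0.27) in the midbrain and 0.28 (adjusted p = 0.427) in the left cortex. Stat3 in the left cortex at T1 had 0.40 ± 0.15 and was not called (adjusted p = 0.301).

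The other called group differences were at T3 in the AM. Jak2 in the midbrain was 2029, 2162 and 2113 in the NON pools, 2500, 2313, 2619 and 2565 in the HEM pools, and 2499, 2429, 2394, 2439 and 2272 in the HOM pools. In these AM pools every transgenic pool lay above every NON pool. The log2 fold-changes were 0.25 ± 0.07 for HEM (adjusted p = 0.0185) and 0.20 ± 0.07 for HOM (adjusted p = 0.0334). Other target genes were not checked for such a separation, so it is not shown to be particular to Jak2. The PM pools of the same region and time overlapped, with 2248, 2528 and 2140 in NON, 2180 and 2547 in HEM (0.04 ± 0.08, adjusted p = 0.982) and 2173 in the single HOM pool. The PM and AM effects of HEM were not shown to differ (-0.21 ± 0.11, adjusted p = 0.435). With p-values adjusted over all groups of the region, neither AM call passed (adjusted p = 0.0556 and 0.116), and of the 9 calls only Stat3 in the midbrain at T2 did (adjusted p = 0.0325).

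Jak2 and Lepr-b in the right cortex of HOM passed with 0.18 ± 0.07 and 0.55 ± 0.21 (adjusted p = 0.043 for both), and both were lost without NON pool 10 (0.10 and 0.38), which was at or under background for Lepr-b. Stat3 in the hindbrain of HEM, with 2 pools a group, had 0.66 ± 0.24 (adjusted p = 0.0345) and fell to 0.35 (adjusted p = 0.462) without the low-reference NON pool 7. It was also lost without the 4 pools of mice seen in the hindbrain only (0.54, adjusted p = 0.102). The largest differences that were not called were -1.0 ± 0.29 for Lepr-b in the right cortex of HEM PM at T3 (adjusted p = 0.0753), from 5.87 and 3.98 in HEM against 12.6, 10.7 and 6.70 in NON, of which 5.87, 3.98 and 6.70 were at or under background so that the size is not resolved, and 0.47 ± 0.25 for Jak2 in the hindbrain of HOM AM at T3 (adjusted p = 0.187).

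Averaged over the time points and collection times shared with NON, 6 of 24 comparisons passed (10.8% over all genes). Lepr-b was lower in the left cortex of HEM, and it was the only member lowered in either genotype. At T1 the 1 HEM pool that entered, a PM pool, had 22.8, under the NON pools (34.6 to 44.5), and the 3 HEM pools with no collection time, which did not enter, had 38.8, 28.8 and 39.0. At T2 its normalised counts in the left cortex were 33.1, 37.8, 28.5, 32.6 and 30.5 in HEM and 32.3 (lowest), 38.6 (median) and 50.5 (highest) in NON. At T3 HEM ran from 4.94 to 8.14 and NON from 7.40 to 13.0, so the groups overlapped at both times with most HEM pools low.

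The averaged log2 fold-change was -0.48 ± 0.09 (12 against 16 pools, adjusted p = 0.000513), where the median over the 43 genes was -0.01. It was called whichever pool was left out (-0.53 to -0.40) and with TMM (-0.48), but not when scaled to the positive control probes (-0.35, adjusted p = 0.815). The right cortex of HEM had -0.31 ± 0.10 (adjusted p = 0.0869), which passed with TMM (-0.35, adjusted p = 0.0212), and the midbrain -0.13 (adjusted p = 0.0798; with TMM -0.19, adjusted p = 0.0276). At T3, 3 of the 12 HEM pools of the cortices were at or under background for Lepr-b, as were 2 NON pools and 0 HOM pools, and the part of background in the difference was not tested.

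In the midbrain of HEM, Jak2 was higher by 0.14 ± 0.04 (adjusted p = 0.00726) and Stat3 by 0.16 ± 0.05 (adjusted p = 0.0124). Neither passed with TMM (0.08 and 0.10). In HOM, Stat3 was higher by 0.17 ± 0.05 in the midbrain (adjusted p = 0.0232), and by 0.22 ± 0.06 in each cortex (adjusted p = 0.0264 left, 0.0163 right). Without the 2 pools of high Stat3 these were 0.08, 0.10 and 0.11 (adjusted p = 0.067, 0.061 and 0.070), and none was called. In the hindbrain no member passed, with 0.09 ± 0.11 for Jak2 in HOM (adjusted p = 0.568) and 0.20 ± 0.09 for Stat3 in HEM (adjusted p = 0.154).

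**Figure D4:**
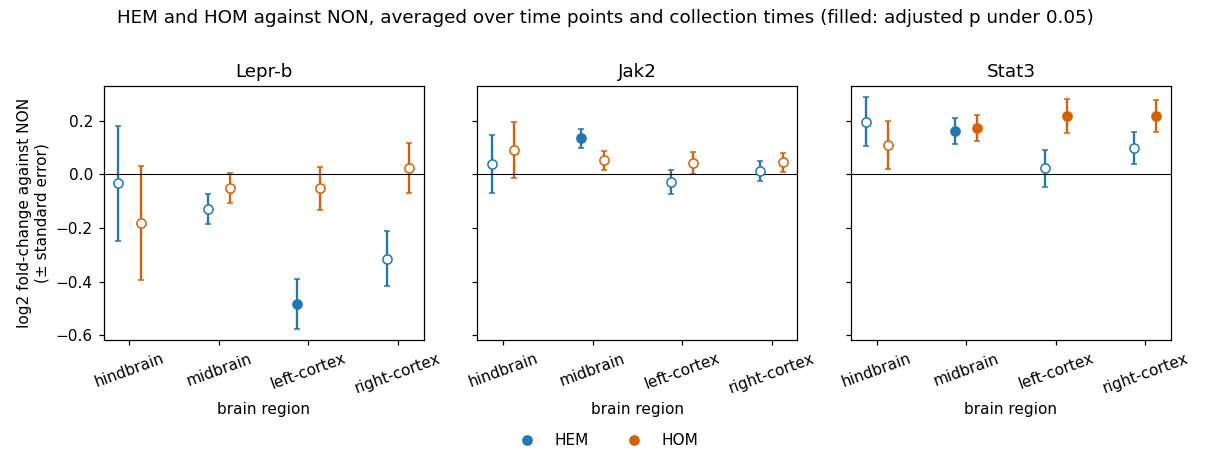
Log2 fold-change of HEM and HOM against NON (points, bars are SE), averaged over time points and collection times, for Lepr-b, Jak2 and Stat3 in each region, with filled points for an adjusted p under 0.05. Lepr-b in the left cortex of HEM is the only filled point under 0, at -0.48.

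Transgene dose gave no call. In 45 comparisons of HOM with HEM by edgeR's test, 0 passed (9 at an unadjusted p under 0.05), where 0.775% of all genes' comparisons did, and TMM, DESeq2 and the positive probes called 3 each. The largest were Lepr-b in the left cortex at T3 AM (0.54 ± 0.18, adjusted p = 0.0981), Jak2 in the right cortex at T2 AM (0.33 ± 0.09, adjusted p = 0.0529) and Stat3 in the right cortex at T1 PM (0.37 ± 0.15, adjusted p = 0.101). The value of Stat3 turned to -0.011 without T1 HOM pool 1/5. For Jak2 in the right cortex both HOM pools (4127 and 4434) exceeded both HEM pools (3418 and 3396). In the right cortex at T2, 5 pools titled homozygous carry a source name that says hemizygous, and they were taken as HOM.

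Collection time was kept apart by the study. In NON mice 0 of 36 comparisons of PM with AM passed by edgeR's test (1 at an unadjusted p under 0.05, 0.969% passing over all genes), and 0 of 12 did so averaged over time points (0 at an unadjusted p under 0.05, 4.65% over all genes). The largest were in the hindbrain at T3, with -0.86 ± 0.55 for Lepr-b (adjusted p = 0.352), 0.17 ± 0.24 for Jak2 and 0.26 ± 0.21 for Stat3, and they involve the low-reference pools. Without NON pool 7 these were 0.035, -0.13 and -0.050 in the same order, so their directions are not settled. Averaged, the largest were -0.41 ± 0.28 for Lepr-b and 0.10 ± 0.12 for Stat3 in the hindbrain and -0.09 ± 0.05 for Jak2 in the left cortex. That of Stat3 was -0.0049 without NON pool 7.

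The effect of genotype differed between PM and AM in 1 of 36 comparisons (0.194% over all genes). It was Lepr-b in the right cortex of HEM at T3, where the PM effect minus the AM effect was -1.41 ± 0.37 (adjusted p = 0.0237), and it was lost without HEM pool 8/10 (-1.21, adjusted p = 0.263). Both HEM PM pools, 1 NON PM and 1 NON AM pool were at or under background, so neither the size nor the call can be told apart from background counts. Lepr-b and Stat3 in the hindbrain of HEM at T3 had 0.49 ± 0.73 and -0.37 ± 0.29, and neither passed.

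Pools at T3 with the label of previous diabetes did not differ detectably from those without it within genotype and collection time. By edgeR's test 0 of 12 comparisons passed (0 at an unadjusted p under 0.05), where 1.74% of all genes' comparisons did. The largest were -0.25 ± 0.14 for Lepr-b in the left cortex (adjusted p = 0.502), -0.43 ± 0.22 for Jak2 in the hindbrain (adjusted p = 0.467) and -0.25 ± 0.22 for Stat3 in the hindbrain (adjusted p = 0.488).

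The ratio of Lepr-b to Lepr asks whether the long form moved apart from the other probe of its gene, without use of the reference genes. In NON mice the mean log2 ratio in the left cortex was -3.04 ± 0.19 (SD, n = 5) at T1 and -3.57 ± 0.42 (n = 6) at T3. In the right cortex it was -3.24 ± 0.18 and -3.93 ± 0.57. In the midbrain it was -2.99 and -2.89, and in the hindbrain -3.14 and -3.16. The hindbrain mean at T3 held the low-reference NON AM pool 7, at -1.30, and was -3.53 without it. The difference from T1 was -0.02 with all pools and -0.39 without pool 7 (exact p = 0.135). With pool 7 kept, it was -0.74 with the negative control mean subtracted and 0.33 without pools at background, so its direction is not settled.

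By two-sided exact permutation tests, 0 of 8 comparisons of time, 0 of 6 of regions and 0 of 16 of genotypes passed after adjustment within each family. Those of time were of NON pools, those of regions of NON pools at T1 and T2, and those of genotype at T2 and T3. The cortical differences from T1 to T3 were -0.53 (left; exact p = 0.0216, adjusted 0.165) and -0.69 (right; exact p = 0.0411, adjusted 0.165). With the negative control mean subtracted the left cortex passed (-0.89, adjusted exact p = 0.0173). For genotype the largest was -0.75 in the left cortex of HEM at T3 (exact p = 0.0173, adjusted 0.101), and for regions 0.21 in midbrain minus hindbrain (exact p = 0.0151, adjusted 0.0908). The difference from T1 to T3 was negative in both cortices with all pools, with the negative control mean subtracted and without pools at background, from -0.89 to -0.53 for the left and from -1.27 to -0.54 for the right. In HEM and HOM the means, which were not tested over time, went from -3.30 to -4.31 and from -3.27 to -4.03 (left), and from -3.33 to -4.21 and from -3.30 to -3.85 (right).

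**Figure D5:**
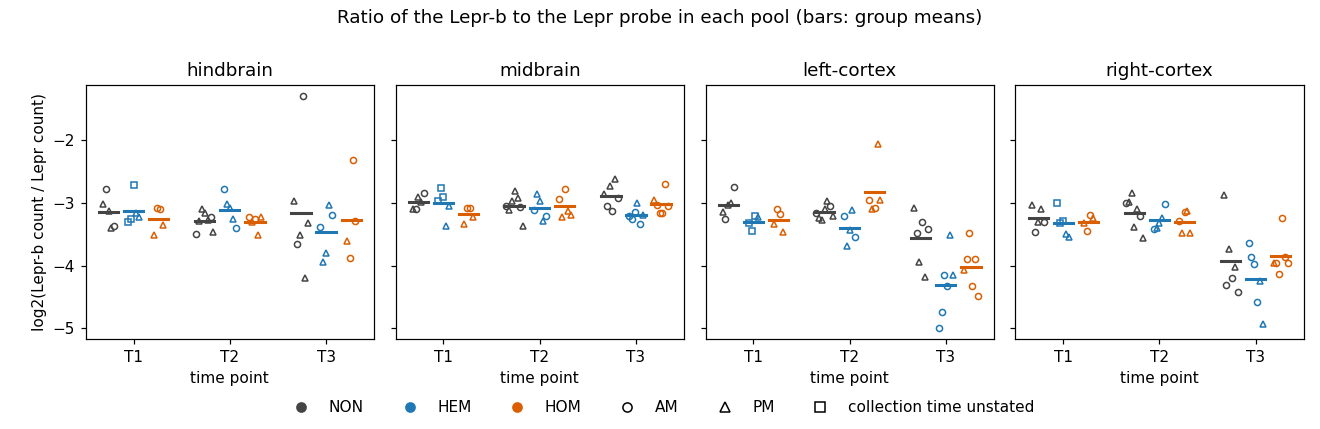
Log2 ratio of the Lepr-b count to the Lepr count in each pool by region and time point, with genotype as colour. Cortical pools at T3 spread downwards, to NON means of -3.57 (left) and -3.93 (right), and group means of the midbrain lie between -3.19 and -2.89.

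The other leptin pathway genes of the panel were the Lepr probe, the inhibitors Socs3, Ptp1b (a phosphatase that acts on Jak2) and Pias3 (an inhibitor of Stat3), the phosphoinositide 3-kinase arm Irs1, Irs2, Pik3ca, Pik3r1 and Pde3b, and the neuropeptides Pomc, Agrp, Npy and Cart. Between T1 and T3 in NON mice, 33 of 52 comparisons of these 13 genes passed, 31 lower and 2 higher, beside 89 lower of 172 over all 43 genes. By region, 9 of 13 genes were lower for the hindbrain, 7 for the midbrain, 6 for the left cortex and 9 for the right, beside the 60.5%, 51.2%, 44.2% and 51.2% of all genes given above.

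Lepr fell in every region, with log2 fold-changes of -1.49 ± 0.18 (left cortex), -1.68 ± 0.20 (right cortex), -0.81 ± 0.21 (hindbrain) and -0.35 ± 0.06 (midbrain). Pik3ca, the catalytic subunit of the kinase, had -0.83, -0.82, -0.82 and -0.24 for the regions so ordered, and Pde3b, a phosphodiesterase downstream of it, -0.85, -0.91, -1.03 and -0.19, all called. The inhibitors Ptp1b (-0.62, -0.68, -0.65 and -0.35) and Pias3 (-0.41, -0.52, -0.44 and -0.20) fell in all regions too. Both activating and inhibiting genes were thus among those lowered, as were many other genes of the panel. The median gene changed by -0.22 (left cortex), -0.33 (right cortex), -0.54 (hindbrain) and -0.20 (midbrain). Pias3 fell less than the median gene in the hindbrain and about as much in the midbrain. In both cortices Pias3 and Ptp1b fell more than the median gene. No value with TMM is given for these genes, so their falls are not separated from the scaling.

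Pik3r1, the regulatory subunit, rose in the left cortex (0.11 ± 0.05) and fell in the right (-0.11 ± 0.05), while Cart rose in the right cortex (0.99 ± 0.31) and fell in the hindbrain (-1.0 ± 0.42, adjusted p = 0.0395). Npy, the appetite-raising neuropeptide, fell in both cortices (-0.74 ± 0.15 left, -0.63 ± 0.13 right) and in the hindbrain (-0.19 ± 0.07, adjusted p = 0.0135). Socs3, Agrp and Pomc passed in no region, with Socs3 at 0.01 ± 0.39 (left cortex) and -0.22 ± 0.36 (right cortex). In HEM and HOM mice 51 of 104 comparisons were lower at T3 and 0 higher, beside 38.4% lower over all genes.

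Against NON, 24 of 507 comparisons of these genes in HEM or HOM passed within time point and collection time, 22 higher and 2 lower, beside 79 of 1677 called in either direction over all genes. Averaged over groups, 9 of 104 passed, all higher, beside 10.8% over all genes. In the midbrain of HEM these were Npy (0.36 ± 0.13), Ptp1b (0.10 ± 0.04), Pde3b (0.09 ± 0.03), Pik3ca (0.08 ± 0.02) and Pik3r1 (0.09 ± 0.03), in the midbrain of HOM Npy (0.44 ± 0.12) and Socs3 (0.67 ± 0.21), in the left cortex of HOM Npy (0.30 ± 0.09), and in the hindbrain of HEM Irs2 (0.18 ± 0.05). Without the 2 pools of high Stat3 the HOM values were 0.28 (adjusted p = 0.155) for Npy and 0.15 (adjusted p = 0.40) for Socs3 in the midbrain and 0.20 (adjusted p = 0.183) for Npy in the left cortex, and none was called. Socs3 was lost without either pool alone (0.37 and 0.45), and Npy without T1 pool 1/5 (0.32 midbrain, 0.22 left cortex).

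Over all pools the genes whose log2 normalised counts ran most like Lepr-b were Lepr (Pearson's r = 0.88), Insr, the insulin receptor (0.81), and Jak2 (0.76), beside a median of 0.31 over the other genes. Those most like Jak2 were Insr (0.88), Lepr (0.86) and Gsk3b, a kinase of the insulin pathway (0.84). Those most like Stat3 were Jak2 (0.80), mTor (0.79) and Arrb2 (0.73). These values describe pools that share regions, mice and the reference genes, and they contain the differences between regions and time points.

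Within groups, as deviations from the group mean in 175 pools, Jak2 ran with Pde3b (0.85) and Pik3ca (0.82) and Stat3 with Pde3b (0.72), while Lepr-b ran with Mch and Lepr (0.44 for both). Of 20 relations between named pairs within regions, Jak2 with Stat3 in the left cortex passed a permutation test (n = 43, Pearson's r = 0.547, adjusted p = 0.0014, Spearman's rho = 0.615, adjusted p = 0.0012), with r = 0.515 without the 2 pools farthest from the median. With TMM r was 0.551 (adjusted p = 0.0258) and rho 0.461, which did not pass (adjusted p = 0.0569). Others passed by r with pools left out. Without the low-reference pools, Lepr-b with Lepr went from r = 0.56 (adjusted p = 0.0942) to 0.88 (adjusted p = 0.0014) in the hindbrain. In the right cortex that pair then passed with r = 0.51 (adjusted p = 0.04). Without the 2 HOM pools, Jak2 with Stat3 went from 0.30 (adjusted p = 0.0712) to 0.66 (adjusted p = 0.021) in the right cortex. Without the 2 farthest pools it passed in the hindbrain (r = 0.57, adjusted p = 0.0169). Stat3 with Socs3 had r of 0.84 (midbrain), 0.85 (left cortex) and 0.81 (right cortex), none past the adjusted threshold by permutation within groups (adjusted p = 0.0712, 0.0533 and 0.0712). With the low-reference hindbrain pools left out, the left cortex passed at an unchanged r (adjusted p = 0.0378). Without the 2 HOM pools r was 0.14, 0.38 and 0.21, so the relation rests on them. In the hindbrain r was -0.58 (adjusted p = 0.0712), and -0.11 without the low-reference pools.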

How the data were processed

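The study counted mRNA of 43 target genes, 3 reference genes, 6 positive and 8 negative control probes with the NanoString nCounter, which counts colour-coded probes without amplification. The deposited table holds whole-number counts per probe and pool that the authors did not normalise, per the column totals. All columns were matched to samples through the labels. The study analysed these counts with NanoStringDiff, which was not used here.

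Counts were fitted with edgeR 4.0.16 (quasi-likelihood test, R 4.3.3) with the log geometric mean of the reference genes as offset and a separate mean for every combination of time point, genotype and collection time, in 1 model per region (for regions, 1 model of all pools). P-values were adjusted (Benjamini-Hochberg) over the 43 genes of each comparison, and an adjusted p under 0.05 was called. Results for 1 reference gene are not reported here. Ratios and correlations were tested by permutation (SciPy 1.17.1; 0.5 added to counts and 100000 permutations for correlations). The fits were tested on simulated data. Counts limit precision most where they are low, as for Lepr-b at T3.

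The members and the pathway list were chosen with earlier results of these data known. Named in full were, for each kind of comparison and gene, the largest called and the largest uncalled log2 fold-change. Pools numbered alike were taken as the same mice in each region, although 1 number (T3 HOM pool 1/5) has ages that differ between regions. In the right cortex at T2, 5 pools titled and genotyped homozygous have a source name that says hemizygous and were taken as HOM. Deviations of pools numbered alike correlated between regions with medians from -0.02 (hindbrain and midbrain) to 0.41 (left and right cortex). A fit with the mice as a block was run as an alternative. Pools of a group came from separate mice, and the least different of 198 pairs of pools in a group still differed by a chi-square of 4.68 per degree of freedom, so no pool was counted as a duplicate. Alternatives were TMM, positive probe scaling, leaving out each reference gene, DESeq2 1.42.0, subtraction of the negative control mean, gene filters, fold-change limits (1 and 0.58), other groupings, and leaving out pools.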

Additional observations from a re-analysis of the deposited data

Results flagged for a closer look

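Of 33 groups with 4 to 10 pools in which a single pool was tested for distance from the others, 1 was marked, where chance marks about 1 in 20 groups. It was Stat3 in the midbrain of HEM AM at T3, where pool 1 had a normalised count of 775.6 and the other pools lay between 807.8 and 812.6.

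The remaining results were marked because an effect differed between regions or collection times by a test of the difference. The T3 change of Lepr-b in NON mice differed by -1.38 between left cortex and hindbrain, -1.63 between right cortex and hindbrain, -1.81 between left cortex and midbrain and -2.05 between right cortex and midbrain. That of Jak2 differed by 0.72 between midbrain and hindbrain, -1.07 between left cortex and midbrain and -1.03 between right cortex and midbrain. That of Stat3 differed by 0.60 between midbrain and hindbrain. With the mice as a block the differences of Jak2 and Stat3 between midbrain and hindbrain were 1.16 and 1.06. Over all genotypes, the median ratio of reference genes to positive control probes went down in the cortices and hindbrain but not the midbrain. Its part in these differences was not tested. Lepr-b in the right cortex at T3 had a HEM effect that was lower in PM than in AM pools by -1.41, from 2 HEM PM pools that were both at or under background, 1 of which decided the call, so the size is not resolved from background.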

How the results depend on the processing

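For 54 named comparisons, 804 values under other settings gave 694 with the same direction and side of the threshold, 51 no longer past it, 37 newly past it and 22 with the opposite sign. Causes of these shifts were not tested beyond what a setting itself removes. Counts below are calls of Lepr-b, Jak2 and Stat3. In the reported analysis they were 12 for regions over all groups, 34 for regions within time points, 19 for time points in NON, 16 for time points in HEM and HOM, 9 for genotype, 6 for genotype averaged, 0 for dose, 11 for differences between effects and 1 for correlations.

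TMM gave 20 for regions within time points, 11 and 10 for time points in NON and in HEM and HOM, 5 for genotype and 3 for dose. Positive probe scaling gave 3 for dose. Without B2m genotype had 4 and dose 1, without the second reference gene genotype had 4, and without the third regions within time points had 22 and dose 1. DESeq2 gave 3 for dose. Subtraction of the negative control mean gave 1 for dose and 1 ratio over time (0 reported), and a filter to genes above background in most pools gave 3 for dose. With an absolute log2 fold-change over 1 the counts were 0 for regions over all groups, 4 within time points, 8 and 8 for time points in NON and in HEM and HOM, 0 for genotype, 0 averaged and 7 for effects. Over 0.58 they were 2, 9, 12 in NON, 1 for genotype and 0 averaged. Adjustment over all comparisons of a kind in a region left 1 genotype call. Fits of only the groups compared gave 4 genotype calls, 2 of them shared, and merged collection times gave 2 of 72. With age-matched NON pools at T2 PM genotype had 0 calls (2 reported).

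Chosen after seeing the data, leaving out the 2 HOM pools gave 3 averaged genotype calls and 2 correlations. Correlations numbered 4 without the low-reference hindbrain pools and 2 without the 2 farthest pools. With the replicate block of age-matched pairs at T2, 0 of 48 were called (2 reported). With the mice as a replicate block across regions, 11 regional calls over all groups, 42 within time points and 12 differences of the T3 change (10 reported, 9 shared) were made, and Jak2 in right cortex minus hindbrain turned to 0.15.

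Leaving out 1 pool at a time gave 11 to 13 regional calls over all groups, 32 to 36 within time points, 18 to 21 for time in NON, 12 to 17 in HEM and HOM, 0 to 2 for collection time, 4 to 11 for genotype (4 without T3 HOM pool 2/7, 11 without T1 HOM pool 8/9), 3 to 7 averaged, 0 to 3 for dose, 9 to 13 for effects, 0 to 1 for region ratios and 0 to 2 for time ratios. None of these fits called an averaged collection time, previous diabetes or genotype ratio comparison.

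Signs of called values turned in 9 cases. With TMM these were Stat3 against the hindbrain at T2 in midbrain (-0.049), left cortex (-0.067) and right cortex (-0.044) and at T3 in right cortex (-0.0097, and -0.0027 without the third reference gene). With positive probes they were Lepr-b in left cortex against hindbrain (0.33, called), and Jak2 at T3 in the hindbrain of HEM PM (0.13) and the midbrain of HOM (0.055). With the mice as a block it was Jak2 in left cortex minus hindbrain (0.11). Among named comparisons, signs turned where the value was not called. With TMM these were Jak2 at T3 in right cortex against hindbrain (-0.092), Stat3 at T3 in the NON midbrain (0.084) and Stat3 at T3 in the left cortex of HEM PM (0.0067). With positive probes they were Lepr-b PM against AM in the NON hindbrain at T3 (0.89) and averaged (0.10), the PM minus AM effect of Lepr-b in the HEM hindbrain (-0.82), Lepr-b in right cortex against hindbrain (0.60), Stat3 in right cortex against midbrain (0.49) and Jak2 at T2 in the NON midbrain (0.047). Stat3 in right cortex against midbrain was 0.060 without B2m and 0.022 without the second reference gene, where Lepr-b in right cortex against hindbrain was 0.0035, and Stat3 at T3 in the NON midbrain was 0.023 without B2m. Without the third reference gene Jak2 at T3 in right cortex against hindbrain was -0.0898 and Stat3 at T1 in right cortex against midbrain -0.045. Without the low-reference pools PM against AM in the NON hindbrain at T3 was 0.12 for Lepr-b and -0.031 for Jak2, and the HEM effect difference of Lepr-b -0.49. Without the 4 hindbrain pools at T3 of mice in no other region, Jak2 PM against AM in the NON hindbrain at T3 was -0.089 and Lepr-b in right cortex against hindbrain 0.048. Without the 2 HOM pools Stat3 of HOM against HEM in the right cortex at T1 was -0.011. Over single left-out pools that value ran from -0.011 to 0.68, the HEM effect difference from -0.40 to 1.48, PM against AM in the NON hindbrain at T3 from -0.13 to 0.60 for Jak2, -1.85 to 0.035 for Lepr-b and -0.050 to 0.75 for Stat3, and averaged for Stat3 from -0.0049 to 0.26. Lepr-b was the only member at or under background in any pool, and it lay near background in cortex at T3.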

Other observations

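In the 2 HOM pools of high Stat3, the 43 target genes were searched for values above every other pool of the region, a search made after the values were seen. Npy, which raises food intake, was above all others in 7 of 8 pool and region combinations, Socs3 and Stat3 in 6 each and Lepr-b in 1, and no other gene in any. The normalised count of Npy was 7293 and 7224 in the midbrain against at most 6472 in the other 47 pools (median 2977), and in the left cortex 14600 and 15051 against at most 13084. In the right cortex it was 14331 and 14435 against at most 14255. In the hindbrain it was 768 and 785 beside a highest value of 784. The margins for Npy were narrow beside those for Socs3.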
